A study of Mus musculus with 11 samples.

Results

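The Notch genes described here are the receptors Notch1, Notch2 and Notch3, the ligands Jag1, Jag2 and Dll1, the fringe glycosyltransferase Lfng and the target genes Hes1, Hey1 and Hey2. They were chosen by symbol as members of the pathway, and all 10 were found among the 16755 genes of the deposited table. In Notch signalling a ligand on one cell binds a receptor on its neighbour, ligand uptake and proteases then release the intracellular part of the receptor, and this part joins Rbpj in the nucleus to switch on repressors of the Hes and Hey families. Fringe enzymes such as Lfng add sugars to the receptors and change which ligands they answer to. In the tooth germ, Notch genes mark layers of the dental epithelium and parts of the dental mesenchyme, and the same genes act in blood vessels and in developing neurons, both of which a dissected germ can hold.

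RNA was sequenced from maxillary molar tooth germs of mouse embryos at embryonic day 14.5 (E14.5), the cap stage. There were 4 wild-type libraries, 4 Cilk1-/- libraries and 3 libraries of Cilk1-/-;PCS1–MRCS1△/△ embryos, hereafter the compound mutant. A replicate combined 6 tooth germs or embryos, without a statement of which. The sample numbers fall in 2 runs, here called deposit sets, which the labels do not name. Set 1 held wild-type and Cilk1-/- replicates 1 to 3, and set 2 held replicate 4 of each and all 3 compound mutant libraries. Set and genotype can therefore hardly be told apart in comparisons with the compound mutant. The study asked how tooth patterning depends on Cilk1, a kinase of the primary cilium, and on Hedgehog signalling. Cilk1-/- embryos lacked Cilk1 exon 6, deleted in the germ line with EIIa-Cre, so every tissue carried the deletion. Compound mutant embryos carried the same deletion and also lacked 70 kb of DNA, spanning PCS1 through MRCS1, that holds enhancers driving Shh in oral epithelium. No group carried the enhancer deletion alone in the data analysed here, so compound mutant and wild type differ at both loci. All mice were on a C57BL/6 background, and both sexes were used without sorting.

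The deposited values are on a log2 scale and were read as log2(value + 1), where the value is a level scaled for gene length and library size, probably FPKM (fragments scaled to kilobases of gene and to library size). A level below means this log2 value unless the linear value is named. Counts are not used here, so the depth of each library is unknown, and only the spread between libraries shows how precise a level is. Turned back to the linear scale, the values summed to between 339971 and 364616 per library. Cilk1, listed under its older symbol Ick, was lower in every mutant library than in every wild-type library, with means of 3.53 ± 0.0751 in the 4 wild-type libraries, 2.80 ± 0.0661 in the 4 Cilk1-/- libraries and 2.64 ± 0.0317 in the 3 compound mutant libraries (± SD). Compound mutant replicate 1 stood apart from the rest, at 48.5 on the first principal component of all genes, where the other libraries lay between -11.2 and 6.63.

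Markers of dental epithelium and dental mesenchyme were present in every library. Of the markers of 10 cell types, Pou4f1 and Ttn were the lowest in mean level over the 11 libraries. Pou4f1, of sensory neurons, lay between 0.027 and 0.153, and Ttn, of muscle, between 0.024 and 0.322. The neuronal markers Prph and Ina fell below 0 in some wild-type libraries, to -0.322 and -0.080. The dental epithelium markers summed to linear values between 1232 and 1603 in wild type, between 1359 and 1644 in Cilk1-/-, and to 722, 1077 and 1568 in compound mutant replicates 1, 2 and 3. Of these 10 markers Krt15 was called higher in Cilk1-/- than in wild type (0.63, adjusted p = 0.0436, limma) and lower in the compound mutant than in Cilk1-/- (-1.06, adjusted p = 0.00933, limma). The dental mesenchyme markers summed to between 1216 and 1320 in wild type, between 1163 and 1295 in Cilk1-/-, and to 853, 1279 and 977 in the compound mutant. The 12 neuronal markers, all found, summed to between 18.8 and 26.0 in wild type, between 31.5 and 40.1 in Cilk1-/-, and to 234, 37.1 and 65.4 in the compound mutant. Skeletal muscle markers summed to between 7.21 and 21.3, 13.7 and 37.7, and 4.55 and 5.90 in wild type, Cilk1-/- and the compound mutant, macrophage markers to between 35.4 and 44.1, 36.8 and 43.0, and 28.7 and 41.7, and erythroid markers to between 2106 and 2772, 2075 and 2983, and 757 and 2709. The muscle genes Actc1 and Acta1 were called lower in the compound mutant than in Cilk1-/- (-2.35 and -1.71). In bulk tissue, fewer cells of a type and less RNA per cell cannot be told apart.

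Wild-type and Cilk1-/- libraries that share a replicate number did not vary independently of each other. Over all genes, their deviations from the genotype means had correlations of -0.741, -0.892, -0.848 and -0.792 for numbers 1 to 4, and the sum of the 2 levels was nearly the same in every pair for some Notch genes. For Hes1 the pair sums were 9.56, 9.59, 9.62 and 9.58, although its wild-type levels ran from 4.78 to 5.11, while for Lfng they were 7.51, 7.94, 8.02 and 7.93. Values that take this pairing into account, by adding the replicate number as a block, are therefore given beside the Notch pathway genes that passed at an adjusted p under 0.05 in the 11 libraries. Compound mutant libraries had correlations of only -0.117 to 0.256 with the same-numbered others. The block ties them to the pairs by number alone, so blocked values of the compound mutant do not correct for a pairing seen in these data. Fits and permutation tests without the block treat the libraries as independent, so their standard errors and p-values can be too small. Genotypes were compared with limma in one fit of all 16755 genes in the 11 libraries, with p-values adjusted over all genes by the Benjamini-Hochberg method. Calls required an adjusted p under 0.05 together with a change of 1.5-fold or more. A gene that passed only when a library was left out is not counted among the calls of the full set of libraries. Such fits also changed how many genes were called over all genes, by the ranges in the last section. The labels do not say that replicates came from separate litters, so p-values measure only the spread between these samples.

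No Notch gene met both criteria in any comparison. In Cilk1-/- against wild type, 0 of the 10 were called in limma, where 0.37% of all genes were. In the compound mutant against wild type 0 were called against 1.25% of all genes, and in the compound mutant against Cilk1-/- 0 against 0.543%. At an adjusted p under 0.05 without the fold criterion, Lfng was lower in Cilk1-/- than in wild type (1 of 10 genes, where 2.44% of all genes passed) and Jag1 was lower in the compound mutant than in wild type (1 of 10, where 6.58% passed), while 0 of 10 passed between the mutants (3.33%). At an unadjusted p under 0.05 the members numbered 3 (Jag1, Hes1 and Lfng), 3 (Jag1, Dll1 and Hes1) and 2 (Dll1 and Lfng) of 10 in these comparisons, beside 20.7%, 26.7% and 23.2% of all genes. With the replicate block 0 of the 10 passed at an adjusted p under 0.05 in any comparison, and at an unadjusted p under 0.05 the members were 2 (Hes1 and Lfng), 2 (Jag1 and Dll1) and 2 (Dll1 and Lfng), beside 13.8%, 17.2% and 14.3% of all genes (limma). The median log2 fold changes of the 10 were -0.11, 0.06 and 0.18, and those of all genes were 0.003, -0.002 and 0.003.

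**Figure D1:**
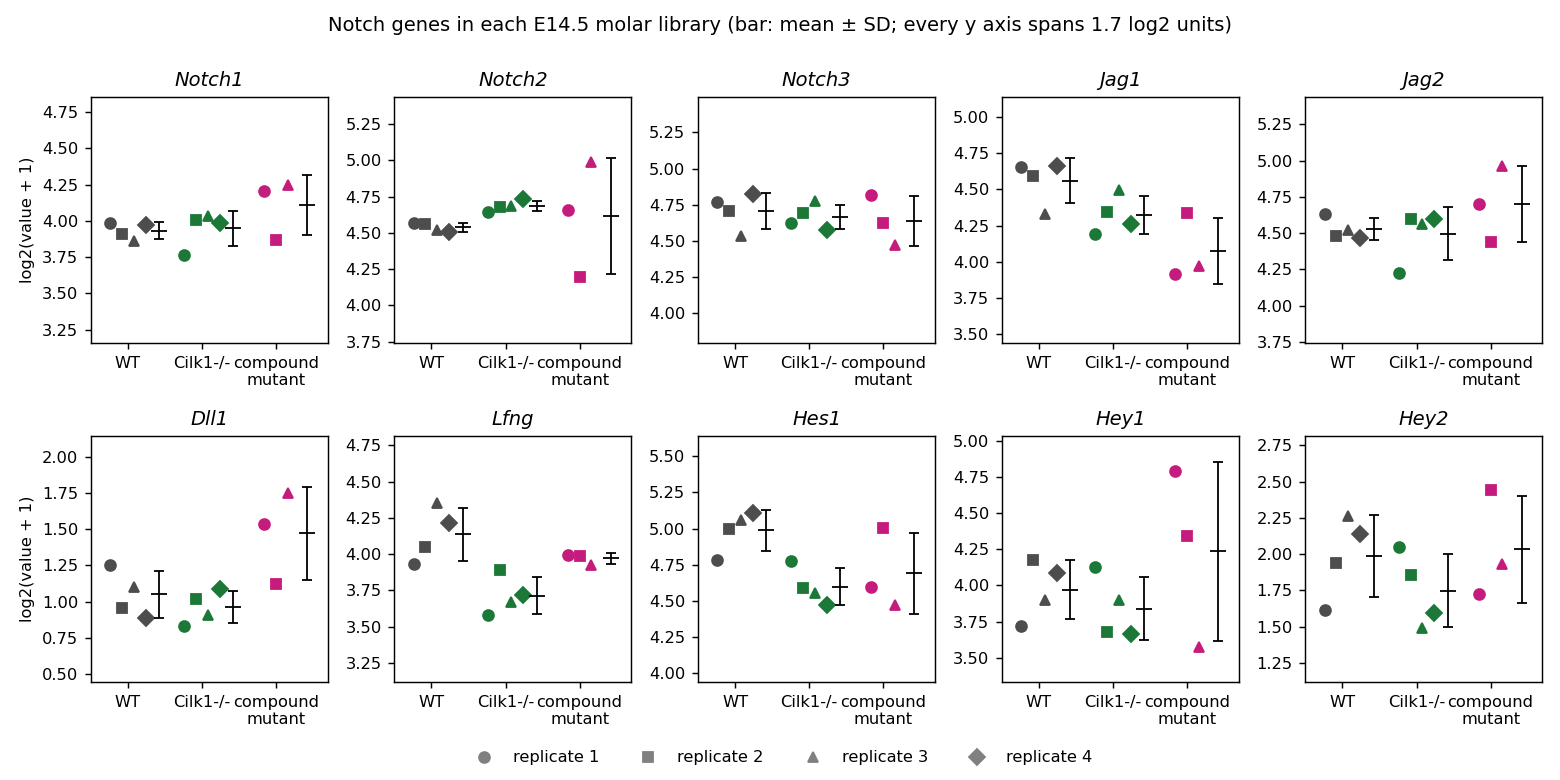
Level of each Notch gene (y axis, log2(value + 1)) in every library, by genotype (x axis). Symbols give the replicate number, and the bar beside each group gives its mean ± SD. Lfng and Hes1 lay lower in all 4 Cilk1-/- libraries than in all 4 wild-type libraries, Dll1 lay higher in all 3 compound mutant libraries than in all Cilk1-/- libraries, and compound mutant libraries were the most spread for Notch2 and Hey1.

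Read as FPKM, which is scaled for gene length, the levels of different genes can be set side by side. In wild type Hes1 had the highest level, at a mean linear value of 30.8 ± 3.04 (SD, n = 4), followed by Notch3 at 25.2 ± 2.22, Jag1 at 22.7 ± 2.46, Notch2 at 22.2 ± 0.488 and Jag2 at 22.1 ± 1.23. Each of these neighbours overlapped the next in range. Below them came Lfng at 16.7 ± 2.24, Hey1 at 14.8 ± 2.16 and Notch1 at 14.3 ± 0.611, which also overlapped as neighbours. Jag2 and Lfng did not overlap as neighbours, but the lowest Jag1 library, at 19.1, lay under the highest Lfng library, at 19.4, so no gap separated the upper genes from the rest. Hey2, at 3.02 ± 0.755, and Dll1, at 1.08 ± 0.239, each stood clear of the gene above. Hes1 exceeded 86.1% of all genes in wild-type level, and Dll1 exceeded 23.5%.

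In Cilk1-/- the upper genes were Notch2, Notch3, Hes1, Jag2 and Jag1 in falling order, and Hey2 and Dll1 were again the lowest. Hes1 stood at rank 3 there, at a linear value of 23.3 ± 2.19 (SD, n = 4), and Lfng stood at rank 8, at 12.2 ± 1.21. In the compound mutant the first 8 genes, from Jag2 at 25.3 ± 4.74 (SD, n = 3) to Lfng at 14.7 ± 0.420, formed a chain of overlapping neighbours. Jag1 stood at rank 3 in wild type and at rank 7 in the compound mutant, at 15.98 ± 2.78. Hey2 and Dll1 overlapped each other there.

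Jag1 encodes a transmembrane ligand with a DSL domain and lies at chr2:137081456-137116644 on the minus strand (GRCm38), with 26 exons in its longest annotated transcript. Its wild-type levels were 4.65, 4.59, 4.33 and 4.66 in replicates 1 to 4. The Cilk1-/- levels were 4.19, 4.34, 4.49 and 4.26, and the compound mutant levels were 3.92, 4.33 and 3.97. Compound mutant replicates 1 and 3 lay below every other library, whereas replicate 2 reached the lowest wild-type library, replicate 3, so the groups just overlapped.

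Jag1 fell by 0.49 on the log2 scale in the compound mutant against wild type (SE 0.116, adjusted p = 0.0366, limma), a ratio of mean linear values of 0.704. The two-sided exact permutation p over these 7 libraries was 0.0857. The adjusted p was 0.124 when only the 2 genotypes were fitted, 0.154 with the replicate block, 0.614 with compound mutant libraries assigned to the block of pair 4, and 0.225 with the deposit set as a term (limma). Leaving out single libraries kept it under 0.05 in 4 of 11 fits. It was 0.0925 without compound mutant replicate 1, 0.00561 without replicate 2, 0.0671 without replicate 3, between 0.0796 and 0.105 without wild-type replicate 1, 2 or 4, and 0.0579 and 0.0582 without Cilk1-/- replicate 2 or 4 (limma). Without compound mutant replicate 2 the change was -0.62 and Jag1 met both criteria. In the compound mutant the summed dental mesenchyme markers, given above, were lowest in replicate 1 and highest in replicate 2, as Jag1 was. Pax9 was instead highest in replicate 1, Barx1 and Dlx2 were highest in replicate 3, and Prrx1 was lowest in replicate 3. The other listed markers had the order of the sum. The part of dental mesenchyme in the Jag1 difference was not tested.

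The Cilk1-/- level of Jag1 lay between those of the other genotypes, with a log2 fold change of -0.24 against wild type (SE 0.107, adjusted p = 0.241, limma) and of -0.25 in the compound mutant against Cilk1-/- (SE 0.116, adjusted p = 0.226, limma). Neither passed the test. Wild-type replicate 3, the lowest of its group, was paired with the highest Cilk1-/- library, and the difference within pair 3 was 0.16 while those of pairs 1, 2 and 4 were -0.46, -0.25 and -0.40.

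Jag2, the second Jagged ligand, lies at chr12:112907819-112929776 on the minus strand and also has 26 exons. The wild-type libraries lay between 4.46 and 4.63 and the compound mutant libraries at 4.70, 4.44 and 4.96. Cilk1-/- replicate 1 was at 4.22, and the other 3 Cilk1-/- libraries lay between 4.57 and 4.60. Its log2 fold changes were -0.03 (SE 0.113) in Cilk1-/- and 0.17 (SE 0.122) in the compound mutant against wild type, and 0.20 (SE 0.122) between the mutants, with adjusted p from 0.337 to 0.923 (limma). Jag1 and Jag2 thus had fold changes of opposite sign in the compound mutant, and the difference between the genes was not tested.

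Dll1, a Delta-like ligand, lies at chr17:15367354-15376872 on the minus strand, with 11 exons. It shares exonic bases with an antisense gene, A930024N18Rik, that is not listed in the table, and whether reads were counted by strand is not stated, so reads of the pair cannot be told apart. Wild-type levels were 1.25, 0.96, 1.10 and 0.88. Those of Cilk1-/- were 0.83, 1.01, 0.91 and 1.09, and those of the compound mutant were 1.53, 1.12 and 1.75. Every compound mutant library lay above every Cilk1-/- library, and replicate 2 overlapped the wild-type libraries.

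Between the compound mutant and Cilk1-/-, Dll1 had a log2 fold change of 0.51 (SE 0.142, adjusted p = 0.0739, limma), the largest of the 10 genes in any of the 3 comparisons, and did not pass the test. The two-sided exact permutation p was 0.0286, the smallest that 3 against 4 libraries allow. Against wild type the compound mutant value was 0.42 (SE 0.142, adjusted p = 0.0993, limma), a ratio of mean linear values of 1.68. Compound mutant replicate 2 was the lowest of its group. Without it Dll1 met both criteria, at 0.68 against Cilk1-/- (adjusted p = 0.0114, limma) and 0.59 against wild type (adjusted p = 0.0100, limma). In the full set of libraries the fold changes were 0.82 and 0.67 with a pseudocount of 0.1 in place of 1, since the added 1 shrinks the change of a gene this low. Replicate 3, the highest for Dll1, also had the highest sum of the 10 enamel knot markers, at a linear value of 188 against 73.1 and 73.3 in compound mutant replicates 1 and 2 and 60.8 to 112 in the other genotypes. Of these markers Cdkn1a alone was called higher in the compound mutant than in wild type, and it was highest in replicate 1, at a level of 5.28 against 4.93 in replicate 3. Replicate 1 also had the highest sum of neuronal markers. The part of either in the Dll1 level was not tested. In Cilk1-/- against wild type the value was -0.09 (SE 0.131, adjusted p = 0.761, limma).

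**Figure D2:**
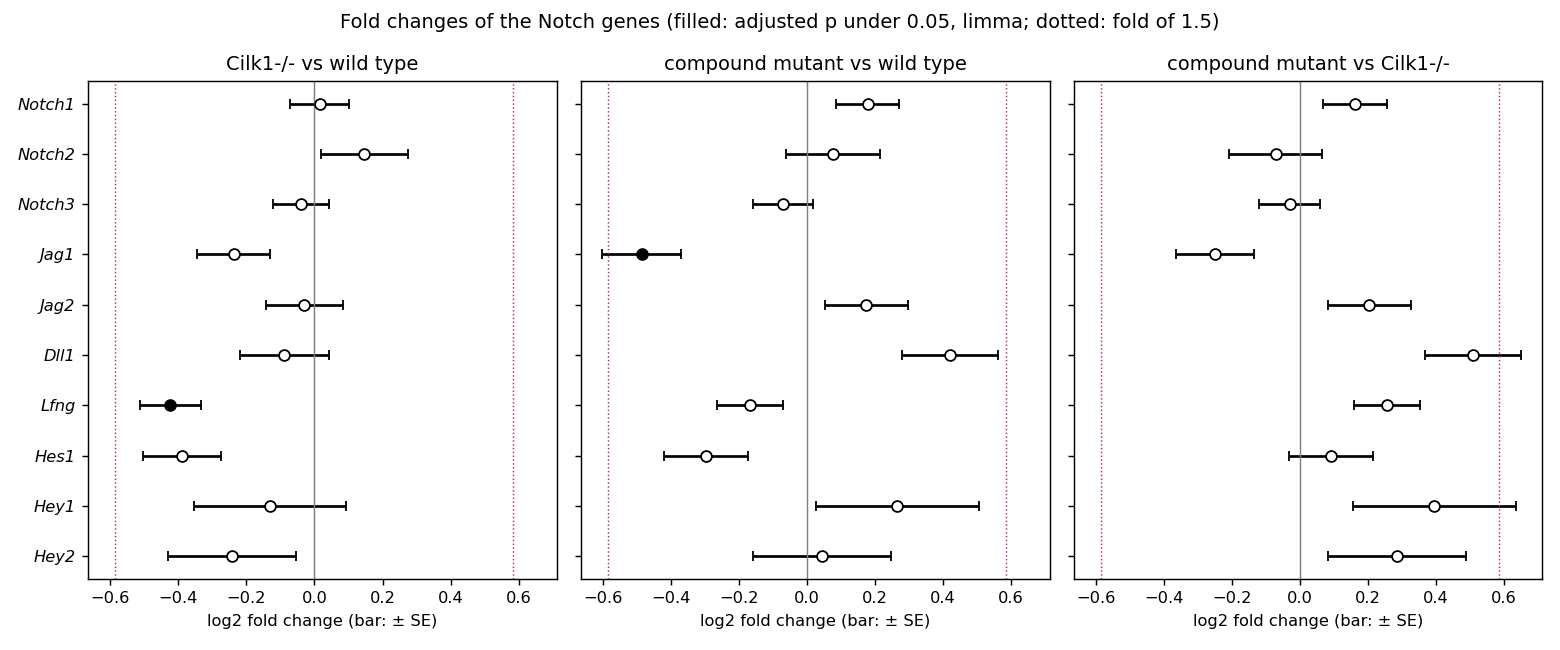
Log2 fold change (x axis) of each Notch gene (y axis) in the 3 comparisons, with bars of ± SE from limma. Filled points passed at an adjusted p of less than 0.05, and dotted lines mark a fold change of 1.5 in either direction. Lfng in Cilk1-/- and Jag1 in the compound mutant, each against wild type, are the filled points, and no point lies beyond a dotted line.

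Notch1, the first of the receptors, lies at chr2:26457903-26516663 on the minus strand, with 34 exons. Its levels ran from 3.86 to 3.98 in wild type, from 3.77 to 4.03 in Cilk1-/- and from 3.87 to 4.25 in the compound mutant. Its log2 fold changes were 0.02 (SE 0.0867) and 0.18 (SE 0.0937) in Cilk1-/- and the compound mutant against wild type, with adjusted p of 0.948 and 0.247 (limma), and 0.16 between the mutants (SE 0.0937, adjusted p = 0.323, limma). Compound mutant replicates 1 and 3, at 4.21 and 4.25, lay above all other libraries and replicate 2 did not. Without replicate 2 the compound mutant value was 0.30 against wild type (adjusted p = 0.0230, limma) and 0.28 against Cilk1-/- (adjusted p = 0.0461, limma). In every other fit that left out a library both adjusted p were above 0.05. Without replicate 1 or 3 they were 0.501 and 0.506 against wild type, and 0.595 and 0.565 against Cilk1-/- (limma).

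Notch2 lies at chr3:98013527-98150361 on the plus strand and has 34 exons. Its wild-type levels were 4.57, 4.56, 4.52 and 4.50 and its Cilk1-/- levels were 4.65, 4.68, 4.69 and 4.73. These groups did not overlap, and the Cilk1-/- library was higher in 4 of 4 pairs. The compound mutant libraries, at 4.66, 4.19 and 4.99, spanned both groups and beyond.

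The log2 fold change of Notch2 in Cilk1-/- was 0.15 (SE 0.127, adjusted p = 0.562, limma), with a two-sided exact permutation p of 0.0286, the smallest that 4 against 4 libraries allow. When libraries were swapped only within pairs, the exact p was 0.125, the smallest that 4 pairs allow. The SE in limma covers all 3 genotypes and so includes the compound mutant spread of 0.400 (SD, n = 3), against 0.0303 in wild type and 0.0356 in Cilk1-/-. In a fit of the wild-type and Cilk1-/- libraries alone the adjusted p was 0.0186 (limma). That fit had no replicate block and treated the paired libraries as independent. With the block in all 11 libraries, Notch2 did not reach even an unadjusted p under 0.05 (limma). Against wild type the compound mutant value was 0.08 (SE 0.137, adjusted p = 0.761, limma), and 0.29 without compound mutant replicate 2 (adjusted p = 0.0287, limma). The adjusted p was 0.879 without compound mutant replicate 1 and 0.486 without replicate 3 (limma). Between the mutants the log2 fold change was -0.07 (SE 0.137, adjusted p = 0.794, limma).

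Notch3, best known from vascular mural cells, lies at chr17:32120820-32166852 on the minus strand, with 33 exons. Its levels ran from 4.53 to 4.82 in wild type, from 4.58 to 4.77 in Cilk1-/- and from 4.47 to 4.82 in the compound mutant, and the groups overlapped throughout. The log2 fold changes were -0.04 (SE 0.0823), -0.07 (SE 0.0889) and -0.03 (SE 0.0889) in the 3 comparisons, with adjusted p from 0.646 to 0.875 (limma). Mural cell markers summed to linear values between 149 and 154 in wild type, 140 and 151 in Cilk1-/- and 132 and 164 in the compound mutant, and 0 of 9 were called in any comparison. All 3 receptor genes overlap small annotated genes that are not listed in the table.

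Lfng, the fringe enzyme, lies at chr5:140607320-140615545 on the plus strand, with 8 exons. Its wild-type levels were 3.93, 4.05, 4.35 and 4.21. In Cilk1-/- they were 3.58, 3.89, 3.67 and 3.72, and in the compound mutant 3.995, 3.989 and 3.925. All 4 Cilk1-/- libraries lay below all libraries of the other genotypes, and the compound mutant libraries lay between just under the lowest wild-type library and the second lowest.

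Lfng fell by 0.42 on the log2 scale in Cilk1-/- against wild type (SE 0.0895, adjusted p = 0.0407, limma), a ratio of mean linear values of 0.728. The Cilk1-/- library was lower in 4 of 4 pairs, by differences of -0.35, -0.16, -0.68 and -0.50. The adjusted p was 0.161 with the replicate block, 0.268 with the compound mutant placed with pair 4, and 0.0782 with the deposit set as a term (limma). It was under 0.05 in 4 of the 11 fits that left out a library. It ranged from 0.0612 to 0.131 without any single Cilk1-/- library, and was 0.0889, 0.0949 and 0.129 without wild-type replicate 2, 3 or 4 (limma). The two-sided exact permutation p was 0.0286, and 0.125 with swaps only within pairs.

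Between the mutants Lfng had the opposite sign, at 0.26 in the compound mutant against Cilk1-/- (SE 0.0967, adjusted p = 0.153, limma), with no overlap and a two-sided exact permutation p of 0.0571. This difference did not pass the test, and neither did that of the compound mutant against wild type, at -0.17 (SE 0.0967, adjusted p = 0.289, limma). Groups did not overlap for 3 of the 10 genes in Cilk1-/- against wild type (Notch2, Hes1 and Lfng, where 20.9% of all genes did not overlap), for 0 in the compound mutant against wild type (18%) and for 2 between the mutants (Dll1 and Lfng, 17%).

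Rbpj binds the letters TGGGAA in DNA, and this core was looked for on both strands of the promoters listed in RefSeq (GRCm38.p6), from 250 bases before to 50 after the start. It was present in 25.6% of 32851 promoters. No promoter was listed for Hes1 or Hey1, so neither was searched. Of the 8 Notch genes with a listed promoter, Lfng and Hey2 held the core. They are shown because Lfng passed the test in Cilk1-/- and Hey2 is the other match. Capitals mark the core, written TTCCCA where it lies on the opposite strand, in 90 bases of each promoter read 5′ to 3′ on the strand of the gene, from chr5:140607176-140607265 (plus strand) and chr10:30842934-30843023 (minus strand).
Lfng: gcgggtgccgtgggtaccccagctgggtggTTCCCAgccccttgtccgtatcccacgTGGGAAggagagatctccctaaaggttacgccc
Hey2: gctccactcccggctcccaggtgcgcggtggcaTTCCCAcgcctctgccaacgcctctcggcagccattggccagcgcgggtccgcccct
In Lfng the matches lay on opposite strands, at -135 to -130 and -108 to -103 from the start. Hey2 held a second match at the start itself, outside the stretch printed. The GLI consensus GACCACCCA, looked for in the same windows because the study concerned Hedgehog signalling, was present in 0.253% of promoters and in 0 of the 8 Notch genes. A match is a description of letters and not of binding.

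Hes1, a repressor of the basic helix-loop-helix family and a widely used target of Notch, lies at chr16:30064384-30067796 on the plus strand, with 4 exons. Its wild-type levels were 4.78, 4.996, 5.06 and 5.11. In Cilk1-/- the levels were 4.77, 4.59, 4.56 and 4.47, and in the compound mutant 4.60, 5.002 and 4.47. Every Cilk1-/- library lay below every wild-type library, although the libraries numbered 1 of the 2 groups differed by only -0.01. Compound mutant replicates 1 and 3 lay at Cilk1-/- levels, with replicate 3 level with the lowest of these, and replicate 2 lay in the wild-type range.

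The log2 fold change of Hes1 in Cilk1-/- was -0.39 (SE 0.115, adjusted p = 0.0982, limma), a ratio of mean linear values of 0.756, and did not pass the test. The exact two-sided permutation p was 0.0286, and 0.125 with swaps only within pairs. Pairs 2, 3 and 4 differed by -0.40, -0.50 and -0.63. The adjusted p was 0.0166 in a fit of these 2 genotypes alone and 0.0281 without compound mutant replicate 2 (limma), while with the replicate block it was 0.260. In the compound mutant against wild type the value was -0.30 (SE 0.124, adjusted p = 0.161, limma), and -0.45 without replicate 2 (adjusted p = 0.0157, limma). Between the mutants it was 0.09 (SE 0.124, adjusted p = 0.696, limma).

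Hey1 and Hey2 are related repressors, used by Notch in vessels and elsewhere. Hey1 lies at chr3:8663359-8667256 on the minus strand, with 5 exons. Its levels were 3.72, 4.18, 3.90 and 4.09 in wild type, 4.13, 3.68, 3.90 and 3.66 in Cilk1-/-, and 4.79, 4.34 and 3.57 in the compound mutant. The compound mutant held both the highest library, replicate 1, and the lowest, replicate 3. The log2 fold change of the compound mutant was 0.27 against wild type (SE 0.240, adjusted p = 0.502, limma) and -0.01 without replicate 1. Replicate 1 had the highest neuronal markers, but replicate 2, at 4.34, also lay above every wild-type library. The part of neural tissue in the Hey1 level was not tested. Against Cilk1-/- the log2 fold change was 0.40 (SE 0.240, adjusted p = 0.343, limma), and Hey1 met both criteria without replicate 3, at 0.73 (adjusted p = 0.0284, limma). The endothelial markers summed to linear values between 168 and 197 in wild type, 160 and 184 in Cilk1-/- and 180 and 195 in the compound mutant, with 0 of 13 called in any comparison. Without the fold criterion Eng alone passed. It was higher in the compound mutant by 0.31 against wild type (adjusted p = 0.0155, limma) and by 0.34 against Cilk1-/- (adjusted p = 0.0145, limma).

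Hey2 lies at chr10:30832359-30842801 on the minus strand, with 5 exons, and was low. The wild-type levels were 1.62, 1.94, 2.26 and 2.14, the Cilk1-/- levels 2.05, 1.85, 1.49 and 1.59, and the compound mutant levels 1.73, 2.44 and 1.93. All groups overlapped. The log2 fold changes were -0.24 (SE 0.188, adjusted p = 0.506, limma) in Cilk1-/- and 0.04 (SE 0.203, adjusted p = 0.913, limma) in the compound mutant against wild type, and 0.29 between the mutants (SE 0.203, adjusted p = 0.422, limma).

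**Figure D3:**
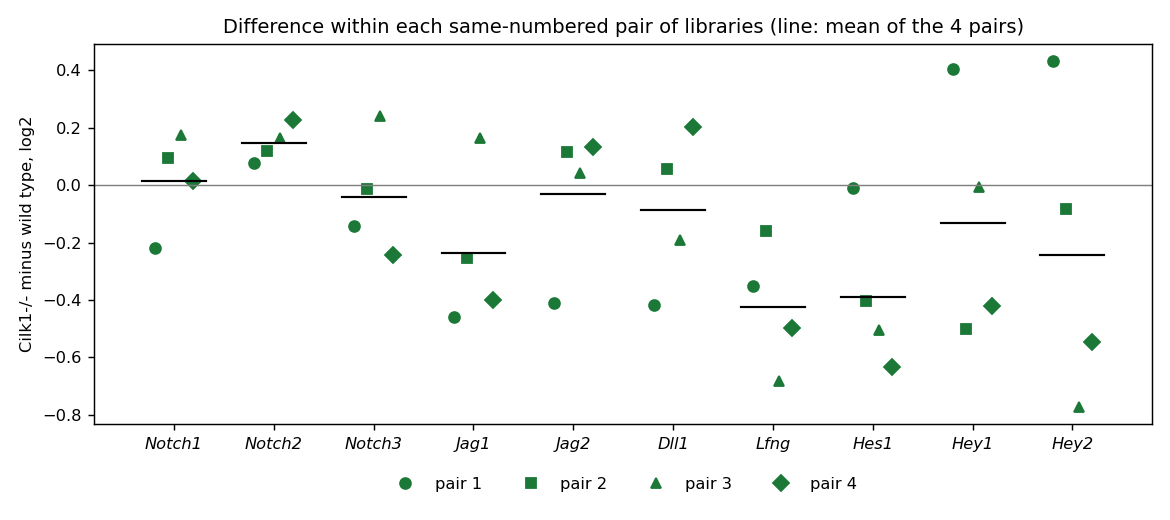
Cilk1-/- level minus wild-type level (y axis, log2) of each Notch gene (x axis) within the 4 pairs of libraries with the same replicate number, with a line at their mean. Lfng and Hes1 lay below 0 in all 4 pairs, Notch2 lay above 0 in all 4, and the other genes had pairs on both sides of 0.

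The genes whose levels moved most like a Notch gene over the 11 libraries were taken as the 2 highest Pearson correlations among 13028 genes, as a description. For Hes1 they were Csnk1g2 (r = 0.994) and Xkr5 (r = 0.993), for Dll1 Bmp7 (r = 0.984) and Susd1 (r = 0.970), and for Hey1 Tada2b (r = 0.983) and 6330419J24Rik (r = 0.958). For Lfng they were Pdgfa (r = 0.966) and Efnb2 (r = 0.941). Jag1 was most like Adcy8 (r = 0.973) and Samhd1 (r = 0.969), and Jag2 was most like Ermp1 (r = 0.960) and Cxadr (r = 0.939). Among the receptors, Notch1 was most like Mical3 (r = 0.966) and Igf1r (r = 0.949), Notch2 like Braf (r = 0.977) and Emc9 (r = 0.966), and Notch3 like Dnmbp (r = 0.963) and Grem1 (r = 0.954). Hey2 was most like Ptma (r = 0.966) and Psme3 (r = 0.956). The 10 Notch genes themselves were left out of this ranking, the libraries share genotype, pairing and the library that stood apart, and the best of many genes is high by selection.

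The rest of the pathway was followed in 57 other genes, of which 56 were listed: further receptors and ligands, fringe and O-glycosylation enzymes, ligand endocytosis, receptor proteases, the nuclear complex and its co-repressors, inhibitors and turnover, and other targets. In each comparison 0 of the 56 were called in limma, and 9, 16 and 17 of them had an unadjusted p under 0.05 in Cilk1-/- against wild type, the compound mutant against wild type and the compound mutant against Cilk1-/-, where 20.7%, 26.7% and 23.2% of all genes did. Their median log2 fold changes were -0.02, 0.04 and 0.05. At an adjusted p under 0.05 with no fold criterion, Rbpj passed in the first comparison, Adam17 and Heyl in the second, and Rbpj and Adam17 in the third, where 2.44%, 6.58% and 3.33% of all genes passed.

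Rbpj, the DNA-binding protein to which the released receptor attaches, had wild-type levels of 4.49, 4.46, 4.46 and 4.56 and Cilk1-/- levels of 4.65, 4.65, 4.64 and 4.64. The compound mutant levels were 4.50, 4.51 and 4.48. The Cilk1-/- libraries lay above all others. Rbpj rose by 0.15 in Cilk1-/- against wild type (SE 0.0323, adjusted p = 0.0396, limma) and was lower by the same amount in the compound mutant than in Cilk1-/- (-0.15, SE 0.0348, adjusted p = 0.0486, limma). Neither change passed with the replicate block, where the adjusted p was 0.229 and 0.282 (limma). They passed at an adjusted p under 0.05 in 3 and 1 of the 11 fits that left out a library (limma).

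Adam17, a protease that cuts the outer part of membrane proteins including Notch receptors, had levels of 4.15, 4.13 and 4.15 in the compound mutant, between 4.27 and 4.39 in wild type and between 4.26 and 4.36 in Cilk1-/-. It was lower in all 3 compound mutant libraries than in all others, with log2 fold changes of -0.19 against wild type (SE 0.0406, adjusted p = 0.0241, limma) and -0.17 against Cilk1-/- (SE 0.0406, adjusted p = 0.0492, limma). The first was kept in 8 of 11 fits without a library and the second in 1, and with the replicate block the adjusted p was 0.174 and 0.269 (limma).

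Heyl, another Hey-type target that is strong in mural cells, was at 2.43, 2.62, 2.56 and 2.74 in wild type. Its levels were 2.58, 2.42, 2.43 and 2.26 in Cilk1-/- and 2.29, 2.09 and 2.15 in the compound mutant. All compound mutant libraries lay below all wild-type libraries. Heyl fell by 0.41 on the log2 scale in the compound mutant against wild type (SE 0.0906, adjusted p = 0.0290, limma), kept in 8 of 11 fits without a library, with an adjusted p of 0.160 with the replicate block (limma). The Cilk1-/- value lay between, at -0.17 (SE 0.0839, adjusted p = 0.295, limma).

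**Figure D4:**
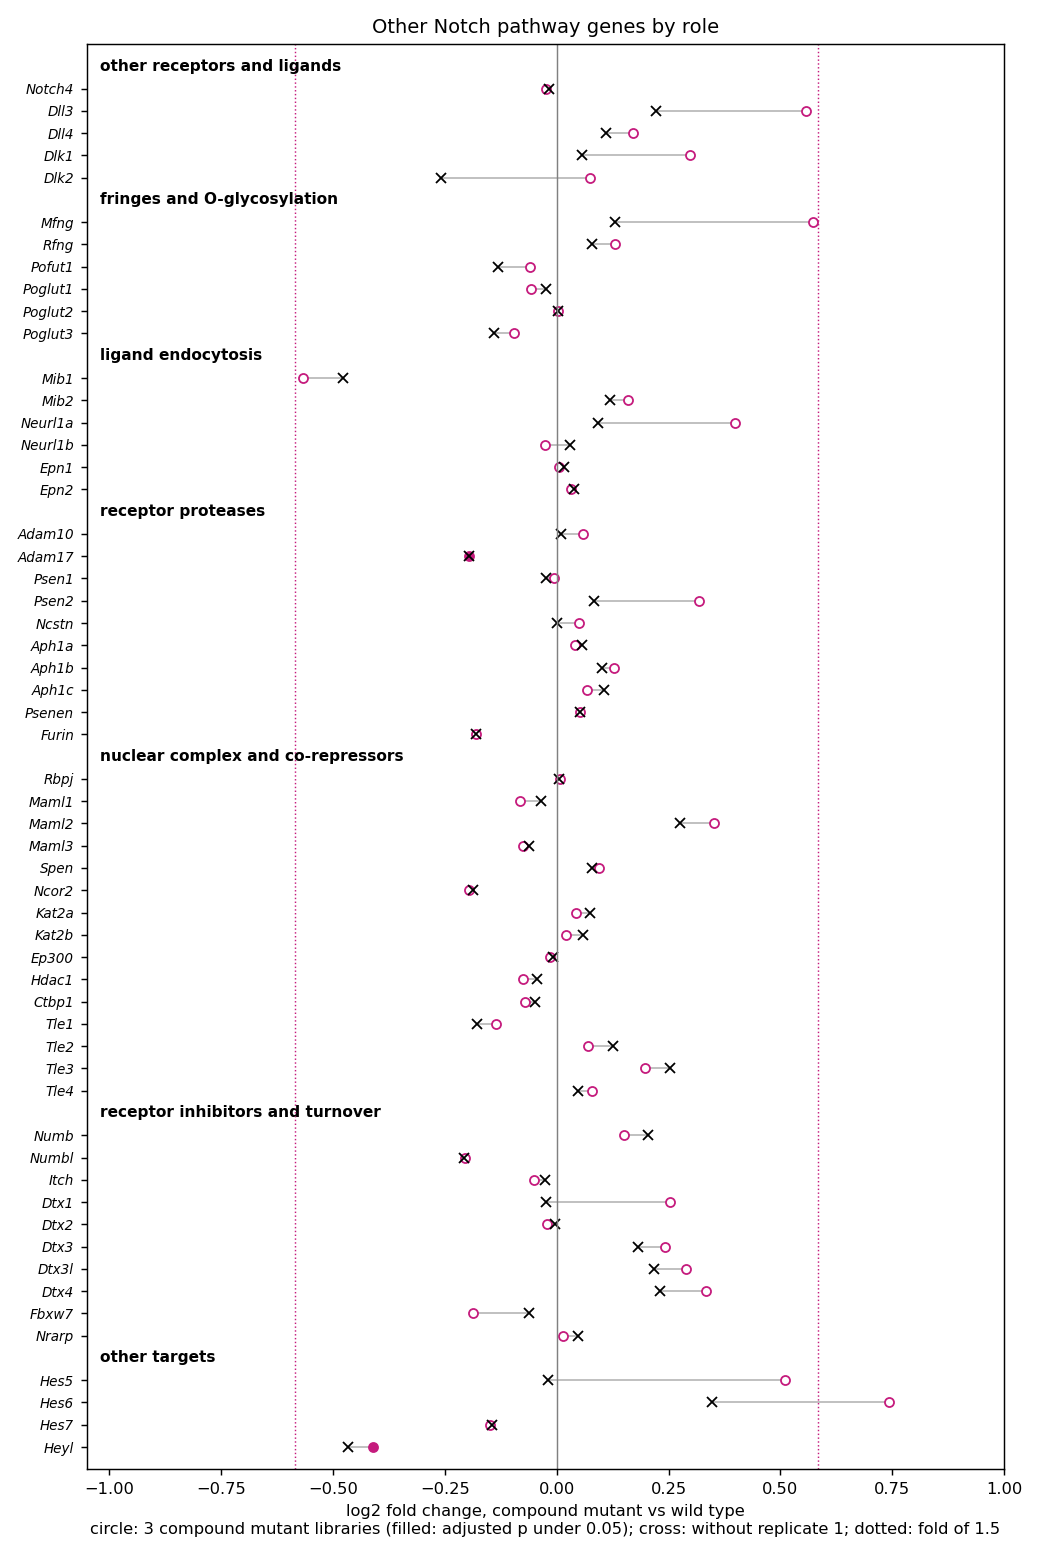
Log2 fold change (x axis) of the 56 other Notch pathway genes (y axis, grouped by role) in the compound mutant against wild type. Circles use all 3 compound mutant libraries and are filled at an adjusted p under 0.05, and crosses leave out compound mutant replicate 1. Adam17 and Heyl are the filled circles, while Dll3, Mfng, Hes5 and Hes6 moved towards 0 without replicate 1.

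The largest fold changes among the other genes did not pass the test. Furin, a protease that processes Notch receptors before they reach the surface, had a log2 fold change of -0.21 (SE 0.0542, adjusted p = 0.0725, limma) in Cilk1-/- against wild type, with no overlap. Aph1c, of the gamma-secretase complex, was at 0.23 (SE 0.0757, adjusted p = 0.129, limma), and Dtx1, a ubiquitin ligase of the Deltex family, was at -0.27 (SE 0.162, adjusted p = 0.378, limma). When compound mutant replicate 1 was left out Dtx1 had an adjusted p of 0.0468 (limma), and Furin had 0.0326 and 0.0361 when replicate 2 or 3 was (limma). In the compound mutant against wild type Mib1, the ubiquitin ligase that starts ligand uptake, was at -0.57 (SE 0.235, adjusted p = 0.160, limma). Against Cilk1-/- it was at -0.69 (SE 0.235, adjusted p = 0.118, limma). Its compound mutant levels were 2.38, 2.11 and 3.18, and only replicate 3 lay within the wild-type range of 2.82 to 3.34. Without replicate 3 Mib1 met both criteria, at -0.88 against wild type (adjusted p = 0.0212, limma) and -1.01 against Cilk1-/- (adjusted p = 0.0104, limma).

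Several Notch genes used in neural progenitors were high in compound mutant replicate 1, the library with the highest neuronal markers. Hes6 was at 6.03 there, against 4.85 and 4.84 in the other compound mutant libraries and 4.27 to 4.67 in wild type. Mfng, another fringe enzyme, was at 4.03 there, against 2.74 and 2.66, and 2.37 to 2.79 in wild type. Hes5 and the ligand Dll3, singled out after their values were seen, were at 1.82 and 1.45 there and at most 0.38 and 0.47 in every other library. In the compound mutant against wild type the log2 fold changes of Hes6 and Mfng were 0.74 (SE 0.249, adjusted p = 0.0977, limma) and 0.57 (SE 0.277, adjusted p = 0.212, limma), and without replicate 1 they were 0.35 and 0.13. Against Cilk1-/- they were 0.64 (SE 0.249, adjusted p = 0.163, limma) and 0.68 (SE 0.277, adjusted p = 0.179, limma). Hes6 met both criteria against wild type without replicate 2 (adjusted p = 0.0375, limma). The linear sum of the 12 neuronal markers was 234 in that library and at most 65.4 in any other, 2 of the 12 were called higher in the compound mutant than in wild type, and the 7 Schwann cell and glia markers summed to 47.9 there against 19.5 to 26.5 elsewhere. The part of neural tissue in these levels was not tested.

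**Figure D5:**
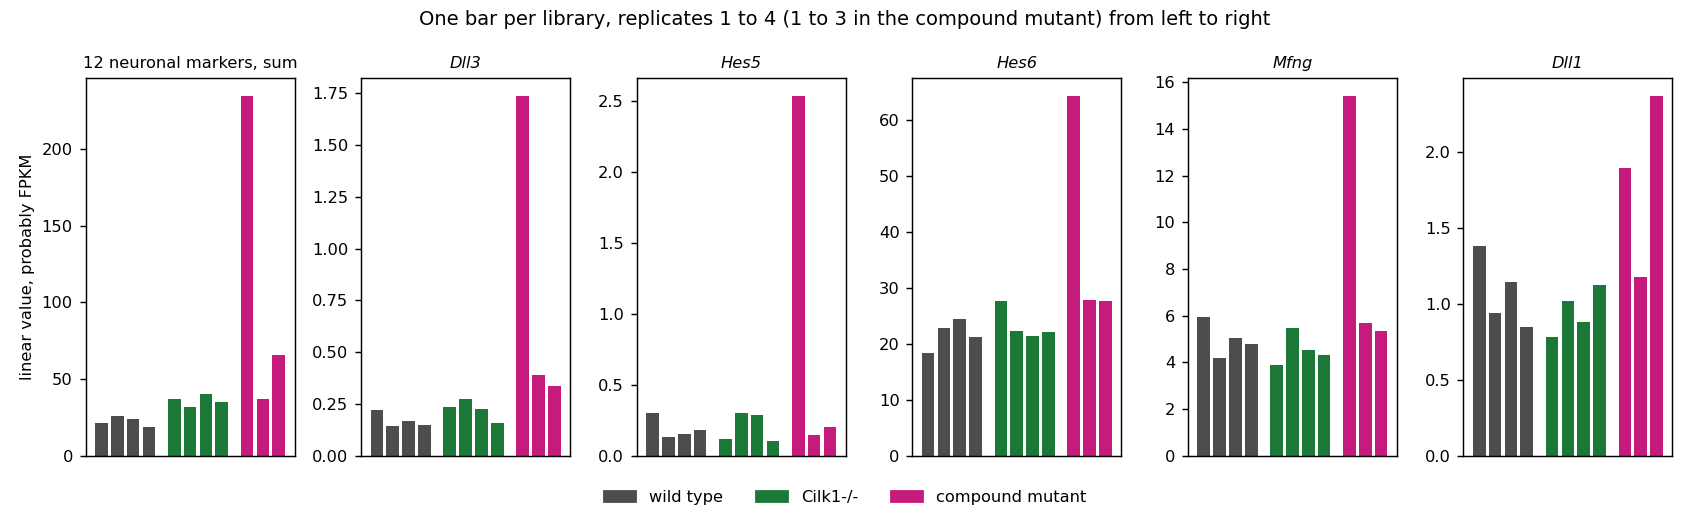
Linear value (y axis, probably FPKM) of the sum of 12 neuronal markers and of Dll3, Hes5, Hes6, Mfng and Dll1, with a bar for each library, coloured by genotype (x axis, libraries in order of replicate number). Compound mutant replicate 1 has the tallest bar for the markers and for Dll3, Hes5, Hes6 and Mfng, whereas Dll1 is highest in compound mutant replicate 3.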

How the data were processed

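RNA-seq of maxillary molar tooth germs gave 11 libraries (4 wild type, 4 Cilk1-/-, 3 compound mutant), grouped by the genotype in the labels. Per the submitters' processing notes and the study's methods, the authors mapped reads to mm10 with HISAT2 2.0.5, counted them per gene with featureCounts 1.5.0-p3 and calculated FPKM from counts and gene lengths. The deposited values are on a log2 scale, read as log2(value + 1). A total of 257 genes have a value below 0, which log2(value + 1) of a level cannot give. Such values were taken as 0 on the linear scale. Either a further step followed the logarithm or the scale is another one, and the sources used here do not say which. Together with the nearly constant sums of same-numbered wild-type and Cilk1-/- libraries in some genes, the values below 0 leave it possible that a term for the replicate number was removed. That was not tested, and p-values without the replicate block would then rest on fewer independent libraries than the fit assumes. Depth is unknown and no count model was fitted. All columns were used.

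lmFit and eBayes (trend, robust) of limma 3.58.1 in R 4.3.3 were fitted to 16755 genes without covariates, with Benjamini-Hochberg adjustment. Exact permutation tests were two-sided. The fit was tested on simulated data. The Notch genes, the other pathway genes and the 10 marker lists were chosen with earlier results of these data known. The genes named are the 10 Notch genes, other pathway genes with an adjusted p under 0.05 or among the 3 largest fold changes of a comparison, and the 2 genes most like each Notch gene. Alternatives were a fit of the 2 genotypes compared, the replicate block (also with the compound mutant in pair 4, with which it shares a deposit set), the deposit set as a term, other scalings, filters and thresholds, and leaving out each library. Gene positions come from GENCODE M21 (GRCm38). RefSeq promoters were listed for 8 of the 10 genes. Plots were made with matplotlib 3.10.9 in Python 3.11.15.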

Additional observations from a re-analysis of the deposited data

Results flagged for a closer look

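In groups of 4 libraries, a library was singled out where its gap to the nearest other library took up more of the group's range than Dixon's 95% limit allows. Of 38 groups examined, 3 held such a library, where chance gives about 1 in 20 groups. All 3 were Cilk1-/- replicate 1. Its Jag2 level was 4.22, against 4.57 to 4.60 in the other Cilk1-/- libraries. For Hes6 it was at 4.84, against 4.49 to 4.54. For Aph1c it was at 0.98, against 1.15 to 1.17.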

How the results depend on the processing

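Calls over all genes depended on the setting. For Cilk1-/- against wild type, the compound mutant against wild type and the compound mutant against Cilk1-/-, in that order, 62, 209 and 91 genes were called, and 130, 34 and 1 when only the 2 genotypes compared were fitted. The replicate block gave 4, 26 and 2, the block with the compound mutant in pair 4 gave 4, 0 and 0, and the deposit set as a term gave 37, 18 and 1. A pseudocount of 0.1 gave 123, 547 and 294, no fold criterion 409, 1102 and 558, and an unadjusted p with the fold criterion 126, 499 and 350. Leaving out a library gave 15 to 95, 80 to 671 and 36 to 360. Of the 10 Notch genes 1, 1 and 0 passed without the fold criterion, and 0 to 0, 0 to 2 and 0 to 1 were called without a library. Of the 56 other pathway genes 1, 2 and 2 passed without the fold criterion, 0, 1 and 3 at an unadjusted p with it, and 0 to 0, 0 to 2 and 0 to 3 without a library. Small fold changes of Notch genes changed sign. In Cilk1-/- against wild type, Notch1 was at -0.00124 with median centring and ran from -0.0128 to 0.0769 without a library, and Jag2 from -0.0639 to 0.0616. In the compound mutant against wild type, Hey2 was at -0.0483 with quantile normalization and ran from -0.159 to 0.198 without a library, Hey1 from -0.0127 to 0.597, Notch2 from -0.112 to 0.286 and Notch3 from -0.160 to 0.0129. Between the mutants, Notch2 ran from -0.259 to 0.139, Notch3 from -0.120 to 0.0532 and Hes1 from -0.0642 to 0.201. The cause was not tested. Of 330 fold changes without a library, 294 kept their direction and their side of an adjusted p of 0.05, as did 259 of 270 under the other settings. Correlations of deviations for compound mutant libraries with the same-numbered others ran from -0.117 to 0.256, so the block ties them to the pairs by number alone. Depth limits could not be given.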
